A study of Mus musculus with 47 samples.

Results

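Oxytocin, released in pulses at suckling, binds its receptor on the basal (myoepithelial) cells that wrap the secretory alveoli, and the cells contract and push milk into the ducts. The same cells can also be reached by catecholamines and endothelins. The alpha1 adrenoceptors and both endothelin receptors, like the oxytocin receptor, act mainly through Gq and phospholipase C to raise calcium, whereas the alpha2 adrenoceptors act through Gi and lower cyclic AMP. The luteinizing hormone receptor is best known in the gonads, where it signals mainly through Gs. The 9 genes described here are the oxytocin receptor (*Oxtr*), the adrenoceptors *Adra1b*, *Adra1d*, *Adra2a*, *Adra2b* and *Adra2c*, the endothelin receptors *Ednra* and *Ednrb*, and the luteinizing hormone receptor *Lhcgr*. They were selected on earlier results of these data, for their levels in basal against luminal cells and in lactation, so those differences are given as a description with no test. All 9 were found by Ensembl identifier among the 17078 genes measured.

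The libraries came from FVB/N mice, with several animals pooled for each sort. Luminal (Lin-CD24+CD29lo) and basal (Lin-CD24+CD29hi) mammary epithelial cells were sorted from the same tissue. The 8 time points were W10 and M4 (10 weeks and 4 months of age, never pregnant), P3.5 and P14.5 (pregnancy days 3.5 and 14.5), L3 and L10 (lactation days 3 and 10), Id2 (2 days after forced weaning) and Iw4 (4 weeks after weaning, in mice that had lactated, with M4 as the age-matched control). There were 46 libraries in 16 groups, with 3 libraries a group except basal P14.5 and basal L10 with 2 each. Here W10, M4 and Iw4 are called non-pregnant, and L3 and L10 lactation. Depth was 4398806 to 20023054 reads on genes (median 8518616), so that 3 reads, taken as the smallest measurable level, were worth 0.17 to 1.05 CPM, the read count scaled to the effective library size.

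The basal label was checked with 7 markers (*Krt5*, *Krt14*, *Trp63*, *Acta2*, *Myh11*, *Cnn1* and *Actg2*). Their summed level was 10776 to 24416 CPM in the 9 non-pregnant basal libraries and 35190 to 68312 CPM in the 5 lactation basal libraries, against 73.8 to 2395 CPM in the 24 luminal libraries. In the 3 Id2 basal libraries it was 875, 14455 and 823 CPM (replicates 2, 4 and 6). Those libraries also held high sums of markers of other cells. The endothelial sum of 10 genes reached 17254 CPM in replicate 2 (led by *Vwf*), and the fibroblast sum of 8 genes reached 75645 CPM in replicate 6 (led by *Col1a1*). The Id2 basal libraries therefore stood apart from their label, and the counts and differences over all time points are also given without the 6 Id2 libraries, which for the differences was chosen after seeing the data.

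*Oxtr* was the most abundant of the 9 receptors in basal cells at every time point but Id2. The *Oxtr*, *Adra1b* and *Lhcgr* promoters are shown because the group means of *Oxtr* followed a course of their own, while those of *Adra1b* and *Lhcgr*, both near the floor in most groups, were nearly alike. RefSeq promoter sequences (GRCm38.p6, 250 bases before to 50 after the start) were found for 8 of the 9 genes. Capitals mark GGGCGG (GC box) or AGAACA (steroid receptor half-site) on either strand. The *Oxtr* window is chr6:112489776-112490075, that of *Adra1b* (the start with the lower coordinate of a pair) is chr11:43836440-43836739, and that of *Lhcgr* is chr17:88791965-88792264, all on the minus strand.
Oxtr: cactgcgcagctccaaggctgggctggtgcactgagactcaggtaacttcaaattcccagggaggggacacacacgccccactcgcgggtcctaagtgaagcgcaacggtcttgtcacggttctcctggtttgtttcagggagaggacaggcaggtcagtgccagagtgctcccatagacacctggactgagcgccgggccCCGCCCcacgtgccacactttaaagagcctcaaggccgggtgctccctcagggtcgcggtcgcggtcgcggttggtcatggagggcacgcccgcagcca
Adra1b: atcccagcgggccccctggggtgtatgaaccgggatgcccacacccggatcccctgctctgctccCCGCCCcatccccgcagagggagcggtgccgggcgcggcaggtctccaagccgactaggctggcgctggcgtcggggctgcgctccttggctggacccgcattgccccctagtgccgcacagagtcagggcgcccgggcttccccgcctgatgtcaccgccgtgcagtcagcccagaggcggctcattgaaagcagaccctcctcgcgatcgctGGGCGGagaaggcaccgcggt
Lhcgr: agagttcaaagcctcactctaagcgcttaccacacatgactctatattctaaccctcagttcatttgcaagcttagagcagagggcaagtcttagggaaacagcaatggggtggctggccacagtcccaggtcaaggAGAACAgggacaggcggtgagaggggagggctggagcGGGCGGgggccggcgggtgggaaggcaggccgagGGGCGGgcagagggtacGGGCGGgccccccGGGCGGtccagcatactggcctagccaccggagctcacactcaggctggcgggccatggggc

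GGGCGG was found once in the *Oxtr* and *Adra2a* windows, at 2 places in that of *Adra2b*, at 2 places in that of *Adra1b* (its other start, chr11:43901188-43901487, holds none) and at 4 in that of *Lhcgr*, and it is present in 35.7% of 32851 mouse promoter windows of this length. AGAACA was found in the *Lhcgr* and *Ednrb* windows and is present in 19% of all windows. TTCNNNGAA (STAT element) was found only in the *Adra2b* window among the 8 genes (8.3% of all windows), and TATAAA only in that of *Adra2a* (13.6%). CATTCC (14.7%) and the CArG box (1.63%) were found in none of the members' windows. These are matches of letters, with no measurement of binding.

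*Oxtr*, the receptor that triggers milk ejection, was high in basal cells throughout the nulliparous gland, pregnancy and lactation. In basal cells it measured 1133, 1460 and 2403 CPM at W10, and 973, 564 and 995 CPM at M4. During pregnancy it measured 681, 462 and 593 CPM at P3.5, and 485 and 518 CPM at P14.5. The lactation libraries held the highest values, with 4323, 3617 and 1486 CPM at L3 and 2652 and 2932 CPM at L10. Only the third L3 library lay within the range of the W10 libraries, and both L10 libraries were above every non-pregnant and pregnant library. At Id2 *Oxtr* was at 1.56, 98.2 and 6.3 CPM, below every other basal library, and at Iw4 it was at 572, 1046 and 789 CPM.

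By group mean, *Oxtr* in basal cells was ordered L3 (3142 ± 1477 CPM, SD, n = 3), L10 (2792 ± 198, n = 2), W10 (1665 ± 659, n = 3), M4 (844 ± 242, n = 3), Iw4 (802 ± 237, n = 3), P3.5 (579 ± 110, n = 3), P14.5 (502 ± 23.5, n = 2) and Id2 (35.3 ± 54.5, n = 3). The ranges of L3 and L10 overlapped, as did those of M4, Iw4, P3.5 and P14.5 in turn. L10 did not overlap W10, W10 did not overlap M4, and P14.5 did not overlap Id2. The mean of the 5 lactation libraries was 2.72 times that of the 9 non-pregnant libraries. As the genes were chosen for this pattern, these values are a description and no test is attached to them. In bulk RNA, fewer cells of a type and less RNA per cell cannot be told apart.

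**Figure D1:**
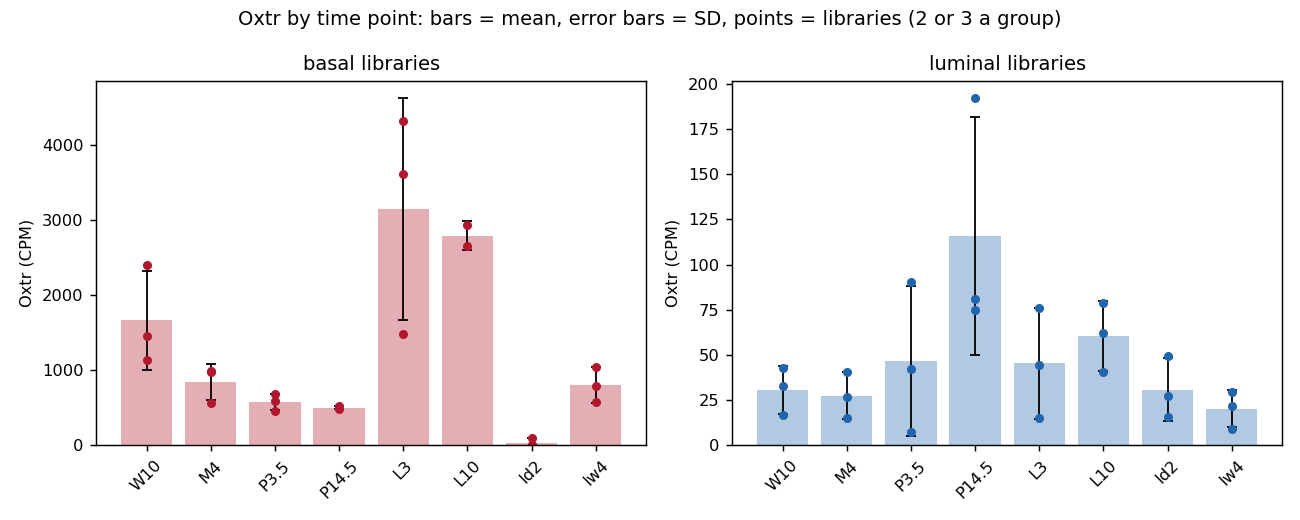
Oxtr in CPM (vertical axes, linear, of different scale) at the 8 time points in basal (left) and luminal (right) libraries, where points are libraries, bars are group means and error bars are SD. Basal values were highest at L3 and L10 and lowest at Id2, and the highest luminal library, at P14.5, was at 192 CPM.

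In luminal cells *Oxtr* was 7.52 to 192 CPM over the 24 libraries, with a median of 40.6 CPM. The highest group was P14.5 with 80.7, 192 and 74.9 CPM. The lowest was Iw4 with 9.15, 21.8 and 29.6 CPM. Neighbouring groups overlapped all along the luminal order. In the 19 sorts outside Id2 that gave both cell types, basal *Oxtr* was higher in 19, whereas at Id2 luminal *Oxtr* was higher in 2 of 3. Over all time points the basal minus luminal difference was 4.12 on the log2(CPM + 1) scale, and 4.89 without the Id2 libraries.

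The level of *Oxtr* was also set beside the basal marker RNA of each library. Per 1000 CPM of summed basal markers, *Oxtr* was at a median of 159 CPM in the luminal libraries (16.9 to 1300, n = 24), 63.3 CPM in non-pregnant basal libraries (43.3 to 98.4, n = 9) and 54.3 CPM in lactation basal libraries (42.2 to 63.5, n = 5). The ranges of these basal groups overlapped, and the lactation median was the lower. The basal markers include contractile genes such as *Myh11*, which led the list in lactation. By group mean, *Myh11* was at 2196 to 4762 CPM in non-pregnant cells and at 24418 and 23151 CPM at L3 and L10. In the same groups *Krt14* was at 619 to 1050 against 974 and 686 CPM, and *Trp63* at 537 to 895 against 646 and 485 CPM. *Krt5* was at 1647 to 1782 against 2945 and 2840 CPM. The lower ratio in lactation thus holds for the whole sum and was not computed for single markers. In the Id2 basal libraries the ratio was 1.78, 6.79 and 7.66 CPM, below every other basal library. This included replicate 4, in which the basal marker sum was within the non-pregnant range and was led by *Acta2* (8399 CPM), as in the non-pregnant basal libraries. The Id2 basal means of *Krt5*, *Krt14* and *Trp63* were 56, 18.3 and 13.3 CPM. In the non-pregnant basal groups these means were at least 1647, 619 and 537 CPM.

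Noradrenaline contracts smooth muscle through alpha1 adrenoceptors. Those among the 9 genes, *Adra1b* and *Adra1d*, were near the limit of detection outside lactation and Id2. *Adra1b* had 3 reads or fewer in 8 of the 9 non-pregnant basal libraries, with 0.941 CPM at most. It measured 2.41, 4.95 and 11.8 CPM at L3, 21 and 38.8 CPM at L10, and 2.19, 9.88 and 1.62 CPM at Id2. All 5 lactation libraries were above all 9 non-pregnant ones, and L10 was above L3 without overlap. The ratio of the means was 99.2, on a base of only 13 reads summed over the non-pregnant basal libraries. Of these reads, 7 came from Iw4 replicate 5, so the size of the ratio depends on that library.

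*Adra1d* followed less regularly. It measured 0.0852 to 1.68 CPM in non-pregnant basal libraries (median 0.615, n = 9). At L3 it was at 0.241, 7.23 and 15 CPM, at L10 at 6.29 and 33.9 CPM, and at Id2 at 1.09, 6.4 and 3.07 CPM. One L3 library was thus inside the non-pregnant range and the other 4 lactation libraries were above it. In the luminal libraries *Adra1b* had 3 reads or fewer in 23 of 24 and *Adra1d* in 21 of 24. In a later annotation, 7.74% of the *Adra1d* exon bases overlap a gene on the opposite strand, and the strand setting of the counting is not stated.

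The alpha2 adrenoceptors differed among themselves in their luminal values. *Adra2a* was above the floor in all 46 libraries. In basal cells it was at 0.848, 0.596 and 1.01 CPM at P3.5, at 11.2 and 6.91 CPM at P14.5, at 6.9, 9.9 and 33.9 CPM at L3, and at 9 and 56.1 CPM at L10. The P14.5 libraries overlapped the L3 libraries and were above all those of P3.5. In non-pregnant cells *Adra2a* was on average lower in basal (2.59 CPM, n = 9) than in luminal libraries (3.78 CPM, n = 9), with overlapping ranges, while in lactation the means were 23.2 CPM (n = 5) and 4.23 CPM (n = 6), also with overlapping ranges. Of 22 sorts, 13 had the higher value in basal and 9 in luminal cells, and of the 19 sorts outside Id2 these were 10 and 9.

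*Adra2b* was higher in the basal library of all 22 sorts. It measured 2.89 and 2.8 CPM at P14.5, 0.321, 3.3 and 14.9 CPM at L3, 12.8 and 6.55 CPM at L10, and 0.178 to 2.13 CPM in non-pregnant basal libraries. The lowest L3 library was inside the non-pregnant range. *Adra2c* was the weakest, with 2.09, 5.71 and 0.464 CPM at L3 and 7.16 and 2.18 CPM at L10 against 0 to 0.915 CPM in non-pregnant basal libraries. In luminal cells *Adra2c* was highest at Id2 with 2.77, 1.12 and 1.63 CPM, all above the highest of the other luminal libraries, 0.996 CPM. The basal libraries of the same sorts were lower, at 1.25, 0.872 and 0.162 CPM.

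*Ednra*, the receptor through which endothelin-1 constricts vessels, had the second highest level per kb after *Oxtr* in W10 and L10 basal cells. In basal cells it measured 33.8, 42 and 58.4 CPM at W10, 13.9, 7.45 and 11.9 CPM at P3.5, and 103 and 65.7 CPM at P14.5. It reached 110, 159 and 336 CPM at L3 and 422 and 546 CPM at L10, and was at 58.2, 414 and 267 CPM at Id2. The groups L10, L3, P14.5 and P3.5 did not overlap one another, P3.5 lay below every other basal group, and W10, Iw4 and M4 overlapped in turn. The lactation mean was 7.82 times the non-pregnant mean in basal cells (315 and 40.2 CPM), and 0.734 times in luminal cells (10 and 13.7 CPM).

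*Ednrb*, which binds all endothelins and is also abundant on endothelial cells, where it favours relaxation, had high values in lactation and at Id2. It was at 4.61 to 17.8 CPM in non-pregnant basal libraries, 36.4 and 21.6 CPM at P14.5, 29.8, 52.9 and 62.7 CPM at L3, and 207 and 173 CPM at L10. At Id2 it measured 346, 329 and 80.6 CPM, so that *Ednrb* was the only one of the 9 receptors whose highest basal group mean fell at Id2 (252 CPM), in a range that overlapped that of L10. The highest library, at 346 CPM, was Id2 replicate 2, in which the endothelial sum was 17254 CPM. In Id2 replicates 4 and 6, with *Ednrb* at 329 and 80.6 CPM, that sum was 608 and 464 CPM. In luminal cells *Ednrb* was at 0 to 1.19 CPM in the 9 non-pregnant libraries and at 1.06 to 15.7 CPM in the 6 lactation libraries. The log2 difference in luminal cells was 2.17, the largest of the 9 genes there. Marker sums differed between the same luminal groups. The basal sum was 88.1 to 219 CPM in non-pregnant and 274 to 2395 CPM in lactation libraries. The endothelial sum was 27.1 to 157 and 143 to 647 CPM, and the part of both was not tested.

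*Lhcgr*, the receptor of luteinizing hormone and choriogonadotropin, had the largest difference of log2 values between lactation and non-pregnant basal cells, 4.24, and *Adra1b* had the next, 3.60. It had 3 reads or fewer in all 9 non-pregnant basal libraries (11 reads summed) and measured 2.81, 16 and 6.77 CPM at L3 and 46.6 and 73.6 CPM at L10. At Id2 it was at 1.41, 19.2 and 1.45 CPM. All lactation libraries were above the non-pregnant ones without overlap, and L10 was above L3. Of the luminal libraries, 1 of 24 had more than 3 reads, an L10 library at 1.09 CPM.

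**Figure D2:**
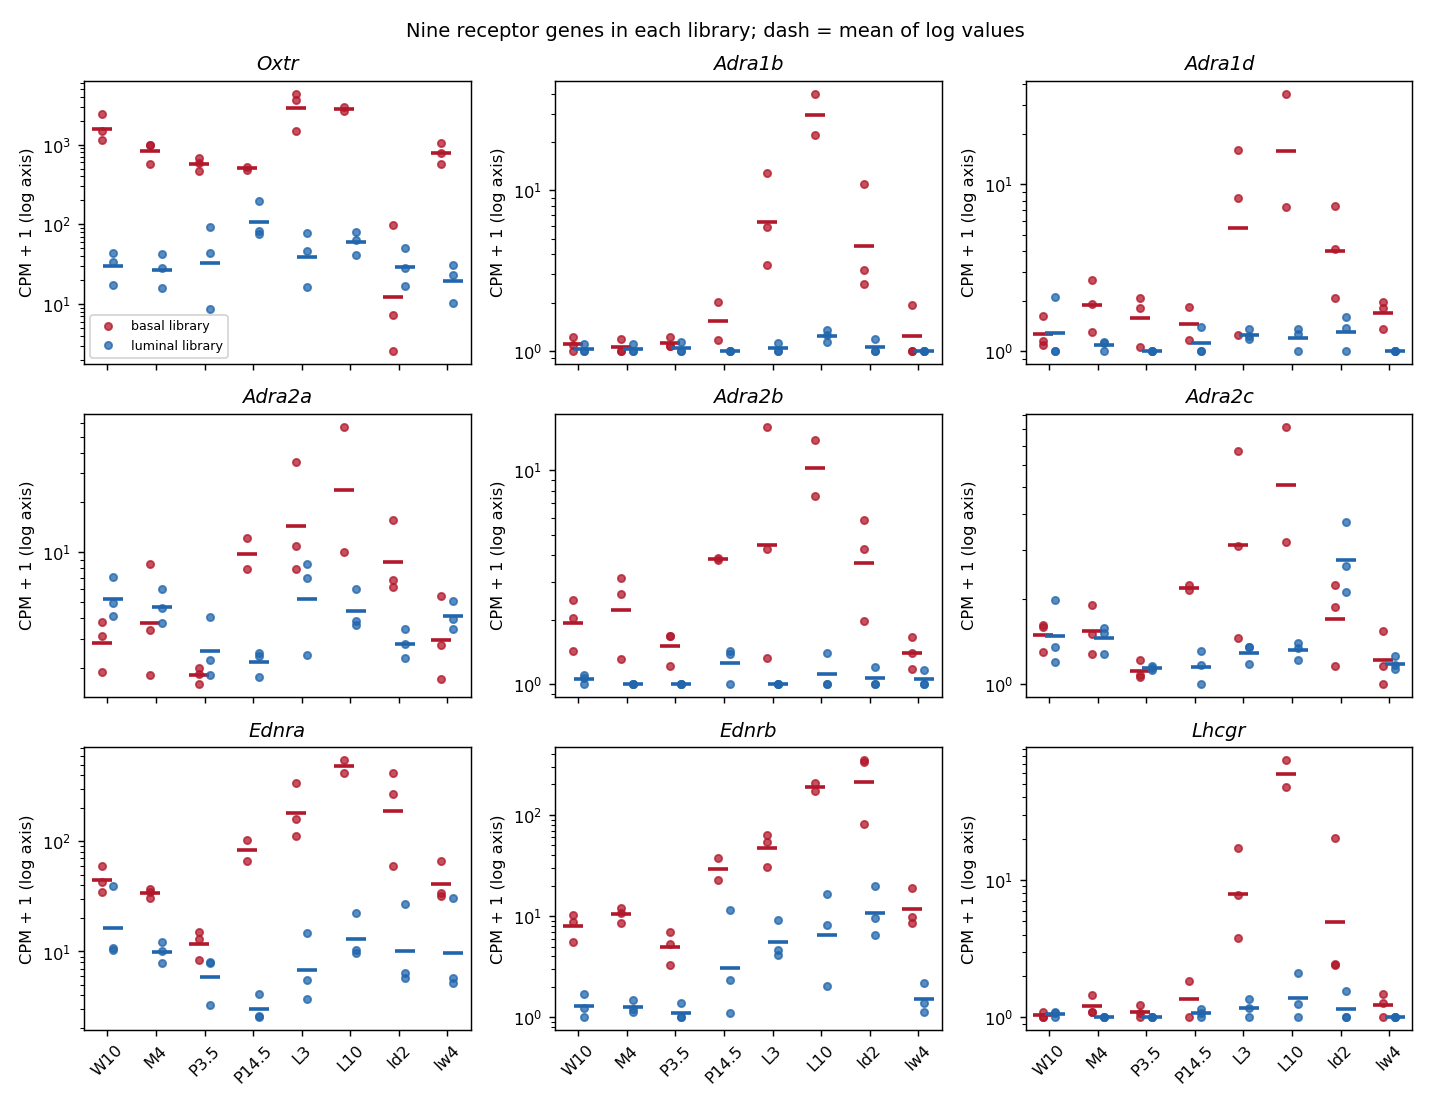
CPM + 1 (vertical axes, logarithmic, of different scale) of the 9 receptor genes at the 8 time points, with a point for each of the 22 basal (red) and 24 luminal (blue) libraries and a dash at the mean of the log values. Oxtr is high in all basal groups but Id2, basal Ednra and Ednrb are higher at P14.5, L3, L10 and Id2 than at P3.5, and Adra1b and Lhcgr are near the floor outside L3, L10 and Id2.

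To compare levels between genes, the means were divided by exon length. In L10 basal cells *Oxtr* was at 583 CPM per kb, *Ednra* at 88.3, *Ednrb* at 44.5, *Adra1d* at 10.6, *Adra1b* at 8.84, *Lhcgr* at 7.86, *Adra2a* at 6.74, *Adra2b* at 2.4 and *Adra2c* at 1.36 CPM per kb (n = 2). At W10 *Oxtr* was at 348, *Ednra* at 8.17 and *Ednrb* at 1.68 CPM per kb, and the other 6 were each under 1. *Oxtr* made up 96.1% to 97.2% of the summed CPM of the 9 receptors in the W10 basal libraries and 78.4% and 75.9% at L10. At Id2 it made up 0.372%, 10.9% and 1.72%.

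Markers of other cell types were higher in the lactation basal libraries as well, and some of these receptors had the same order among libraries as the pericyte sum. All 7 pericyte markers (*Rgs5*, *Pdgfrb*, *Cspg4*, *Kcnj8*, *Abcc9*, *Notch3* and *Higd1b*) were above the floor in each of the 5 lactation basal libraries. Their sum was 95.4 to 373 CPM in the non-pregnant basal libraries, 1228 and 1323 CPM at P14.5, 1550, 3718 and 7403 CPM at L3, 8692 and 15522 CPM at L10, and 3059, 10781 and 2625 CPM at Id2. *Rgs5* was the most abundant by group mean, and *Higd1b* was at 0 in all W10 and P3.5 basal libraries. *Adra1b* and *Ednra* were ordered as this sum in the 5 lactation libraries, and the other 7 were not. *Adra1b* was also ordered so, with the sums 2625, 3059 and 10781 CPM beside 1.62, 2.19 and 9.88 CPM, in the 3 Id2 libraries.

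Per 1000 CPM of pericyte markers, *Adra1b* was at 1.33 to 2.5 CPM in the lactation basal libraries and 0.616 to 0.917 CPM in those of Id2, while per 1000 CPM of basal markers it was at 0.0354 to 0.72 and 0.684 to 2.5 CPM. *Lhcgr* was at 0.915 to 5.36 CPM per 1000 CPM of pericyte markers in lactation. On the same basis the non-pregnant basal libraries were at 0 to 3.26 CPM for *Adra1b* and 0 to 2.22 CPM for *Lhcgr*. Those of pregnancy were at 0.134 to 3.22 and 0 to 3.22 CPM, and all these ranges overlapped those of lactation. *Ednra* was at 35.2 to 71 CPM per 1000 CPM of pericyte markers in lactation and higher, at 87.6 to 479 CPM, in the non-pregnant libraries. *Oxtr* was in the reverse order of this sum among the 3 L3 libraries and in the same order in the 2 L10 libraries. The part of these markers in the receptor values was not tested.

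**Figure D3:**
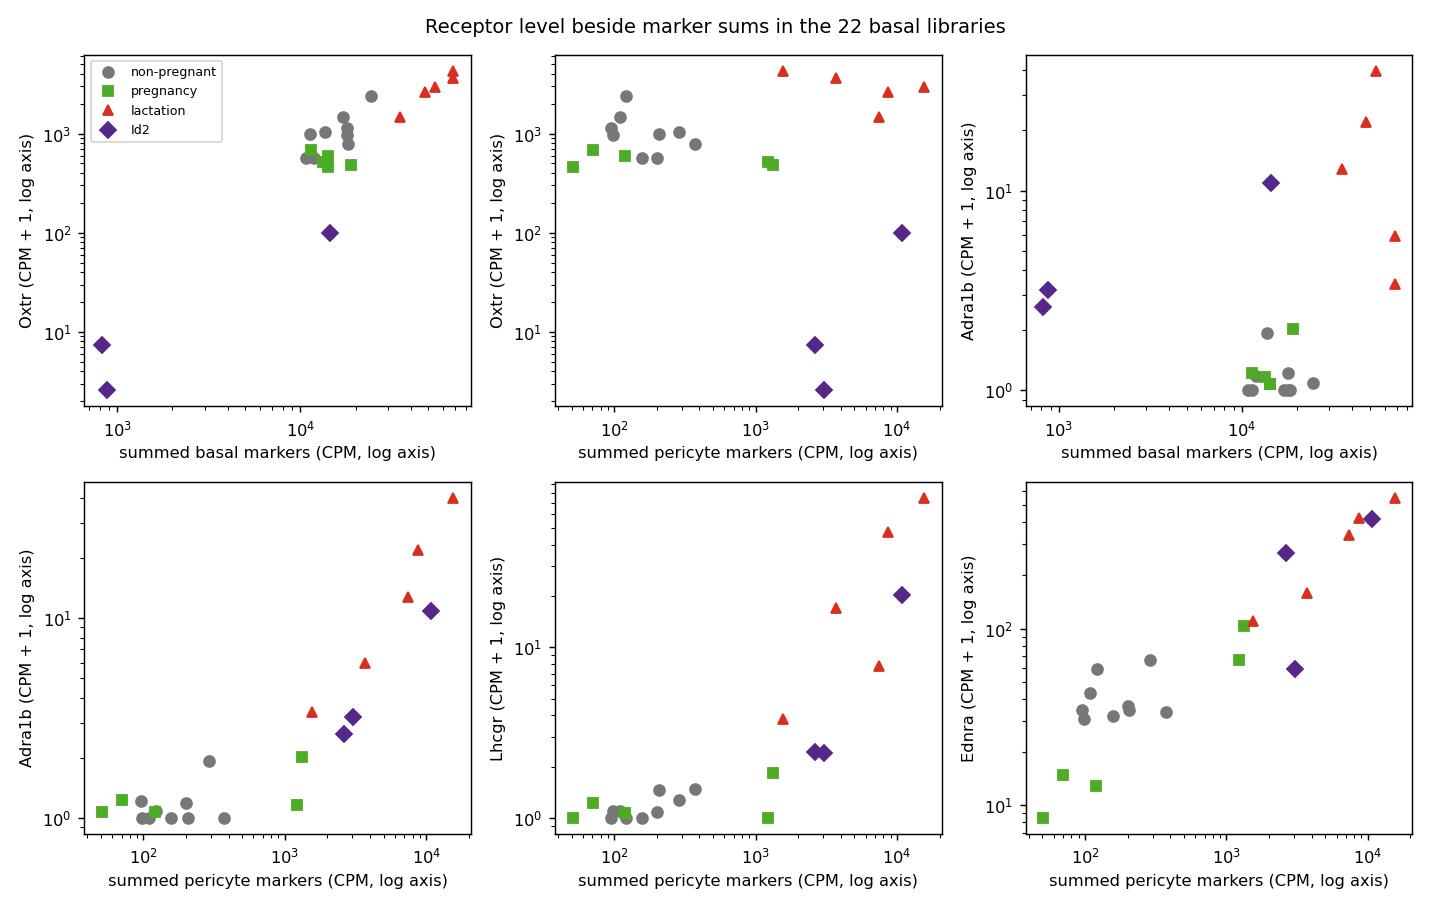
Receptor level (CPM + 1, vertical axes) against the summed CPM of 7 basal or 7 pericyte markers (horizontal axes) in the 22 basal libraries, all axes logarithmic, with symbols for non-pregnant, pregnancy, lactation and Id2 libraries. The highest Oxtr values lie at the highest basal sums, and the highest Adra1b, Lhcgr and Ednra values at the highest pericyte sum, 15522 CPM in an L10 library.

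Other markers also differed, although the Lin- gate used antibodies to Cd11b, Cd45, Ly-6G/Ly-6C, Ter-119, Cd31 and Cd140a, which are carried by blood, endothelial and fibroblast-like cells. The study lists the Cd140a antigen as human and the others as mouse. No antibody to one of the 7 pericyte markers was part of that gate. The endothelial sum was 33.3 to 228 CPM in non-pregnant and 591 to 1450 CPM in lactation basal libraries (led by *Cdh5*). The fibroblast sum was 241 to 2113 CPM and 935 to 6820 CPM. In those groups the adipocyte sum of the 3 measured genes (of 6) was 12.6 to 105 CPM and 480 to 931 CPM (led by *Fabp4*), and the immune sum of 6 genes was 10.1 to 22.1 and 18.7 to 81.7 CPM, led in lactation by *Cd3e*. Sums of the 6 luminal markers, led by *Epcam* and *Krt19*, overlapped (376 to 1684 and 490 to 1063 CPM). The 4 measured Schwann and melanocyte markers were led by *Sox10*, at 172 to 304 and 225 to 633 CPM summed.

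The libraries of L3 and L10 were all amplified in batch 5, which holds no non-pregnant library, so that lactation and amplification batch cannot be told apart. Basal and luminal libraries of the same sort shared batch and lane.

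Across the 16 group means of log2(CPM + 1), the genes most like *Oxtr* among 12877 were *Fhod3* (r = 0.975), *Arl4c* (0.972), *Zfp30* (0.971), *Trnp1* (0.966) and *Egfl6* (0.966). *Fhod3* encodes a formin that assembles actin in sarcomeres, and was highest in L3 basal cells (366 CPM). The gene most like *Adra1b* was *Lhcgr* (0.996), and the reverse also held. Both were chosen on their lactation levels and were near the floor outside L3, L10 and Id2, which favours a high r between them. Library by library they were ordered differently at L3. There *Adra1b* was at 2.41, 4.95 and 11.8 CPM and *Lhcgr* at 2.81, 16 and 6.77 CPM (replicates 4, 5 and 6). For *Adra1d* it was *Sgca* (0.988), which encodes a sarcoglycan of muscle, for *Ednra* *Fry* (0.979), and for *Ednrb* the sphingosine-1-phosphate receptor gene *S1pr3* (0.987). *Zfp366* (0.929), *Cys1* (0.975) and *mt-Tm* (0.913) were the most like *Adra2a*, *Adra2b* and *Adra2c*. Without Id2, over 14 groups, these correlations were between 0.917 and 0.997. The points share the same libraries, and the values are a description.

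Among the basal group means, *Oxtr* and *Ednrb* had r = -0.33 over 8 time points and 0.65 over the 7 without Id2, and *Oxtr* and *Adra1b* had 0.13 and 0.77. *Adra1b* and *Adra1d*, both chosen on lactation and near the floor in most other groups, had 0.98 with and without Id2. Only *Oxtr* of the 9 had its lowest basal mean at Id2.

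The genes were not chosen on the changes from W10 to P3.5, from P3.5 to P14.5 and from M4 to Iw4, although libraries of these time points entered the contrasts they were chosen on. These changes were tested with limma on log2(CPM + 1), where a call needs a fold of at least 2 and a Benjamini-Hochberg adjusted p under 0.01 over all genes. From P3.5 to P14.5 in basal cells, *Ednra* rose by 2.83 on the log2 scale (SE 0.72, limma adjusted p = 0.0096), a 7.1-fold difference, and was higher in both P14.5 libraries than in all 3 of P3.5. It was the 1 member of 9 called, where 3.64% of all genes were called. *Adra2a* (2.44, SE 0.63, limma adjusted p = 0.011), *Ednrb* (2.55, SE 0.69, limma adjusted p = 0.016), *Adra2b* (1.35, SE 0.50, limma adjusted p = 0.08) and *Adra2c* (0.98, SE 0.37, limma adjusted p = 0.089) had positive differences that did not pass. At an unadjusted limma p under 0.05 there were 5 members, these and *Ednra*, beside 24.4% of all genes.

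These calls lay close to the threshold. With the sort as a block, *Ednrb* passed as well (limma adjusted p = 0.0085) and *Ednra* kept its call (0.0072), while edgeR on the recovered reads called *Adra2a* (adjusted p = 0.0073) and not *Ednra* (0.015). Leaving out P3.5 replicate 2, 4 or 6 or P14.5 replicate 3 or 5 left 0 members called, and the limma adjusted p of *Ednra* was then between 0.021 and 0.13. The pericyte, fibroblast and endothelial sums were also higher at P14.5 (1323 and 1228 CPM, 12378 and 6343 CPM, and 811 and 340 CPM) than at P3.5 (50.8 to 120, 256 to 726 and 12.7 to 63.1 CPM), and their part was not tested. Both time points were amplified in batch 6, in different lanes.

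*Oxtr* gave -0.19 in this comparison (SE 0.87, limma adjusted p = 0.93) and 1.72 in luminal cells (SE 0.78, limma adjusted p = 0.27), where the P14.5 libraries (80.7, 192 and 74.9 CPM) overlapped those of P3.5 (42.2, 7.52 and 90.3 CPM). No member was called in luminal cells (1.52% of all genes were). At an unadjusted p under 0.05 there were 2, *Oxtr* and *Ednrb*, beside 15.1% of all genes, and edgeR called 0.

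From W10 to P3.5 no member was called in basal cells, where 6.76% of all genes were called. *Ednra* (33.8, 42 and 58.4 CPM at W10) was lower at P3.5 in every library, with a difference of -1.92 (SE 0.64, limma adjusted p = 0.037), and was the only one of the 9 at an unadjusted p under 0.05, beside 28.1% of all genes. *Oxtr* gave -1.47 (SE 0.78, limma adjusted p = 0.22), and all 3 P3.5 libraries were below all 3 of W10. In luminal cells 0 of 9 were called beside 1.82% of all genes, and *Ednra* (-1.47, SE 0.64, limma adjusted p = 0.19) was again the only member at an unadjusted p under 0.05, beside 19% of all genes. edgeR called 0 members in both cell types. W10 was amplified in batch 4 and P3.5 in batch 6, so that time point and batch cannot be told apart.

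Between the parous gland and its age-matched control (Iw4 and M4) no member was called in either cell type, at an unadjusted p under 0.05 (1.89% of all genes in basal and 2.3% in luminal cells) or by edgeR. Of all genes, 0.00586% were called in basal cells, which is 1 gene, and 0% in luminal cells. *Oxtr* in basal cells gave -0.07 (SE 0.78), and the Iw4 and M4 libraries overlapped. *Ednra* gave 0.29 (SE 0.64) and *Ednrb* 0.16 (SE 0.62). The SE is pooled over all groups, Id2 included. Amplification batches 1, 2 and 3 each held an M4 and an Iw4 basal library, and in that order *Oxtr* was at 564 and 572 CPM in batch 1, 973 and 1046 in batch 2, and 995 and 789 in batch 3.

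**Figure D4:**
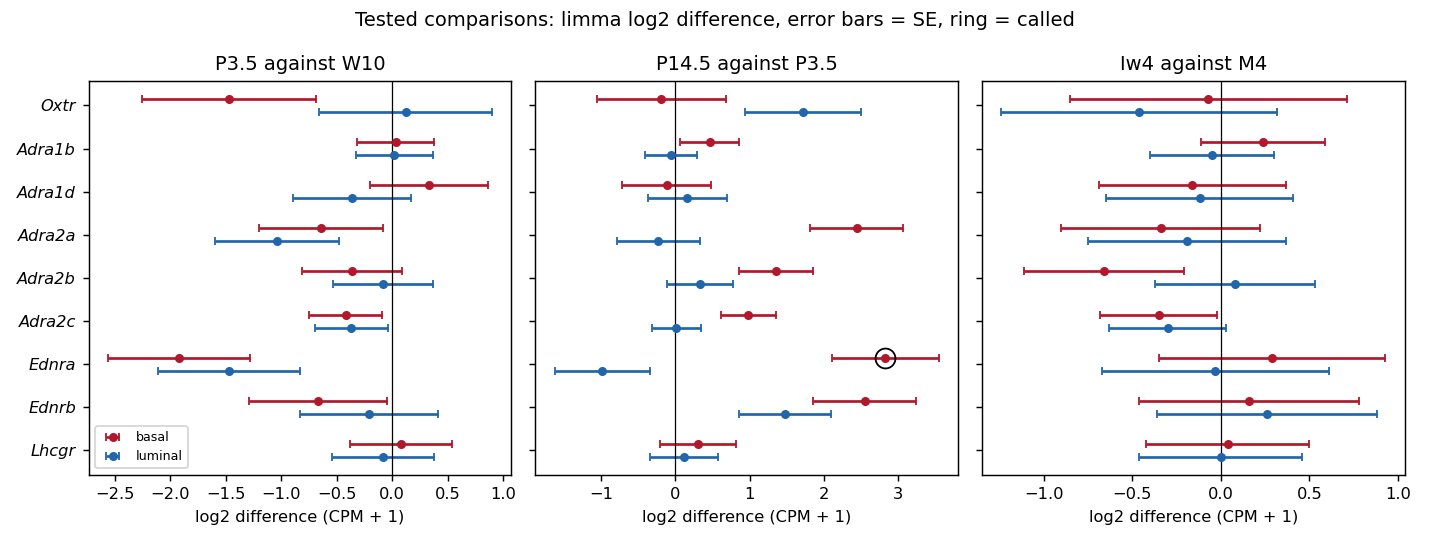
Log2 differences (horizontal axes, CPM + 1) with SE of the 9 receptors (vertical axis) for P3.5 against W10, P14.5 against P3.5 and Iw4 against M4, in basal (red) and luminal (blue) cells, where a ring marks a call. Ednra in basal cells at P14.5 is the only ringed point, and the Iw4 points lie near 0.

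A difference between basal and luminal cells in the change of a member was called for 0 of 9 in each of the 3 contrasts, beside 0.0234% of all genes from W10 to P3.5, 0.193% from P3.5 to P14.5 and 0% from M4 to Iw4. The smallest adjusted p of these limma interactions was 0.045, for *Ednra* from P3.5 to P14.5 (3.82, SE 0.96).

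The other genes of these pathways were taken from textbook lists, 87 genes in the table. *Oxt* and *Avp* themselves, made in the hypothalamus, and the receptors *Avpr1b* and *Avpr2* are not among them. The study had reported enrichment of adrenoceptor, Gq and phospholipase C terms in these same samples, so the lists are not independent evidence. Over all time points, 31 of 87 were called higher in basal cells, where 13.6% of all genes were, and 9 were called higher in luminal cells, against 7.35%. The median log2 difference was 0.68, and 0.02 over all genes. In lactation against non-pregnant basal cells 33 were called higher (10.4% of all genes) and 3 lower (7.78%), with a median of 0.69 against -0.04. A difference between the cell types in the change with lactation was called for 28 of 87, beside 11.4% of all genes. In luminal cells 14 were called higher (7.45%) and 5 lower (5.66%), with a median of 0.20 against -0.01. Without the 6 Id2 libraries 28 were called higher in basal cells (13.8% of all genes) and 9 in luminal cells (7.35%), and *Cysltr1*, *Tbxa2r* and *Plcb4* were the 3 no longer called. Leaving out 1 sort at a time, 5 of the 40 basal against luminal calls, 9 of the 36 in lactating basal cells and 5 of the 19 in lactating luminal cells were lost without at least 1 sort, and these genes are named with their lists. The pericyte and endothelial sums given above differ along the same basal contrast, and the basal and endothelial sums along the luminal one. Their part in these counts was not tested.

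Among the other receptors for these ligands, the vasopressin V1a receptor *Avpr1a*, a Gq receptor that also binds oxytocin, was higher in basal than in luminal cells by 3.09 (SE 0.25, limma adjusted p = 9.3e-14), or 2.85 without Id2, and rose in lactation in basal cells by 4.19 (SE 0.47, limma adjusted p = 4.3e-09), from a mean of 9.97 to 208 CPM. Its mean in the Id2 basal libraries, which stood apart from their label, was higher still, at 796 CPM. *Avpr1a* rose in luminal cells as well, by 2.56 (SE 0.43, limma adjusted p = 1.5e-05), from 1.29 to 14 CPM. The basal and endothelial marker sums differ along the same luminal contrast, and their part was not tested. *Lnpep*, the oxytocin-degrading aminopeptidase, gave 0.09 in basal cells (limma adjusted p = 0.73), at 128 and 134 CPM. Of the 4 adrenoceptors outside the members, the alpha1 receptor *Adra1a* was higher in luminal cells by 4.44-fold (4.73-fold without Id2), the opposite of *Adra1b* and *Adra1d*, and rose in basal cells in lactation from 4.94 to 14.5 CPM (limma adjusted p = 0.0011). Without L10 replicate 5 that call was lost, at a log2 difference of 1.40 in place of 1.54 (limma adjusted p = 0.013).

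Of the 6 endothelin ligands and processing enzymes, *Edn1* (endothelin-1) was higher in luminal than in basal cells by 3.46-fold (3.87-fold without Id2), at means of 73.7 and 35.6 CPM (limma adjusted p = 1.7e-07). *Mme* (neprilysin, which degrades endothelins) was higher in basal cells by 9.37-fold (3.23 on the log2 scale, and 3.40 without Id2). *Ece1*, the enzyme that makes active endothelin, rose in lactating basal cells from 220 to 659 CPM (limma adjusted p = 6.2e-05) and was the only one of the list called in lactation. Its mean in the Id2 basal libraries, which stood apart from their label, was higher still, at 1522 CPM. At Id2, however, the mean of *Edn1* was 130 CPM in basal and 84.3 CPM in luminal libraries, and without Id2 the means over the other time points were 20.7 and 72.2 CPM. The Id2 basal mean included the highest of all basal libraries, at 348 CPM, and rested largely on it.

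Of 21 other receptors that contract smooth muscle, 9 were called higher in basal cells and 3 in luminal cells, and 7 rose and 1 fell in lactating basal cells. *P2rx1*, an ATP-gated channel, rose from 1.36 to 87.1 CPM, *S1pr3* from 14.7 to 377 CPM, *Npy1r* from 7.2 to 82.1 CPM, and the thromboxane receptor *Tbxa2r* from 0.169 to 8.62 CPM. *P2ry1*, a Gq receptor of ADP, fell from 10.3 to 1.41 CPM. These 5 had limma adjusted p of 1.7e-08 or lower. The lactating basal libraries of *Tbxa2r* ranged from 2.16 to 23.6 CPM, and without the highest, L10 replicate 6, their mean was 4.86 CPM. Its non-pregnant basal mean was 0.106 CPM without Iw4 replicate 5, at 0.672 CPM. The lactating basal mean of *P2ry1* was 0.921 CPM without L3 replicate 6, at 3.34 CPM. Both genes stayed called in lactating basal cells without each sort. In luminal cells *S1pr3* and *F2r* rose and the angiotensin receptor *Agtr1a* fell. *Agtr1a*, *S1pr2* and *P2ry2* were the 3 higher in luminal cells, and *Htr2a* was among the 9 in basal cells by 4.03-fold (3.54-fold without Id2). The most abundant of the list, *F2rl1* and *F2r*, had means of 182 and 91.3 CPM over all libraries. Without Id2 these were 190 and 55.5 CPM, and *S1pr3* was at 56.1 CPM. Some calls close to the thresholds were lost when 1 sort was left out. In luminal cells the rise of *F2r* (1.06 on the log2 scale) was lost without 11 of 15 sorts, at 0.90 to 1.10 with limma adjusted p from 0.011 to 0.039, and the fall of *Agtr1a* (-1.40) without 5, at -1.22 to -1.42 with limma adjusted p from 0.011 to 0.026. These 5 were L3 replicate 4, L10 replicates 5 and 6, M4 replicate 2 and W10 replicate 3, and *F2r* stayed called without Iw4 replicate 6, L10 replicate 4, L3 replicate 6 or M4 replicate 2. Between the cell types *Tbxa2r* (1.01) was lost without 8 of 24 sorts, at 0.96 to 1.00, and *Cysltr1* (1.02) without 5, at 0.80 to 0.99. For *Tbxa2r* these were Id2 replicate 4, Iw4 replicate 5, L3 replicate 6, L10 replicate 6, M4 replicate 6, P3.5 replicate 6, P14.5 replicate 5 and W10 replicate 6, and for *Cysltr1* Id2 replicate 2, L3 replicate 6, L10 replicates 4 and 5 and P14.5 replicate 3.

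Of 11 receptors that relax smooth muscle, 7 were called higher in basal cells and 1 in luminal cells, and 5 rose and 1 fell in lactating basal cells. The prostacyclin receptor *Ptgir* rose from 0.561 to 17.3 CPM and *Vipr1* from 3.98 to 14.5 CPM. The adenosine receptor *Adora2a* had a mean of 0.461 CPM in non-pregnant and 20.3 CPM in lactating basal cells, where 1 library, L10 replicate 6, was at 88.2 CPM and the mean of the other libraries was 3.29 CPM. Its log2 difference fell from 2.42 to 1.16 without that sort (limma adjusted p = 0.011), which ended the call, and was 3.67 without L10 replicate 5. *Pth1r* went from 1.05 to 7.12 CPM, with a log2 difference of 1.76 that was 1.08 and no longer called without L10 replicate 6 (limma adjusted p = 0.022), and 2.44 without L10 replicate 5. *Vipr2* (1.62) also lost its call without L10 replicate 6, at 1.15 (limma adjusted p = 0.02). *Ptger4* fell from 45.7 to 20 CPM (-1.10), and was not called without 9 of 15 sorts, at -0.92 to -1.13 with limma adjusted p from 0.01 to 0.074. It stayed called without Iw4 replicate 5, L10 replicate 4 or 5, L3 replicate 6, or W10 replicate 5 or 6. In luminal cells *Npr1* and *Ptger2* rose, *Ptger2* by 1.38, or 0.96 and not called without L10 replicate 6 (limma adjusted p = 0.011). Between the cell types *Adora2a* (1.09) was not called without L10 replicate 6 (0.77) or L3 replicate 6 (0.99), and *Pth1r* (1.08) without L10 replicate 6 (0.89) or Id2 replicate 6 (0.99). *Npr1*, *Npr2*, *Calcrl* and *Ptgir* had the largest basal minus luminal differences of the list (2.39, 2.80, 2.28 and 1.89, or 2.20, 2.86, 2.01 and 1.64 without Id2) and *Vipr1* was higher in luminal cells by 4.97-fold (4.46-fold without Id2).

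Downstream of Gq, G12 and G13, 10 of 26 genes rose and 0 fell in lactating basal cells. *Plcb4*, a phospholipase C that Gq activates, rose from 14.9 to 195 CPM, the calcium entry channel *Trpc6* from 1.69 to 18.7 CPM, and the myosin phosphatase genes *Ppp1r12a* from 324 to 1466 CPM and *Ppp1r14a*, its inhibitor, from 6.7 to 37.3 CPM. The smallest of these log2 differences was 2.21, with limma adjusted p of 1.5e-06 or lower. *Mylk*, the myosin light chain kinase, was the most abundant of the list and was higher in basal cells by 116-fold (SE 0.21 on the log2 scale) and by 147-fold without Id2, at 1988 CPM in non-pregnant and 7639 CPM in lactating basal cells. *Stim1*, which senses calcium stores, and *Trpc1* were among the 6 higher in basal cells. The G protein *Gna14*, the calcium release channel *Itpr3* and the store-operated channel *Orai1* were the 3 higher in luminal cells. In luminal cells *Gna11*, *Orai1*, *Mylk* and *Ppp1r14a* rose and *Gna14*, *Prkca* and *Trpc6* fell. *Mylk* went from 15 to 49.4 CPM there, in libraries whose basal marker sum was also higher in lactation, and the part of that sum was not tested. The call of *Gna11* (1.04) was lost without L3 replicate 4, L10 replicate 4 or W10 replicate 3, at 0.99 each time, and that of *Gna14* (-1.05) without Iw4 replicate 5 (-0.96), L10 replicate 4 (-0.76) or W10 replicate 6 (-0.97).

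On the Gi arm, through which alpha2 adrenoceptors act, *Gnai1*, *Gnao1* and *Gnaz* of 5 genes were higher in basal cells and rose in lactation there, *Gnao1* from 3.36 to 38.5 CPM. The abundant *Gnai2* (460 CPM over all libraries) and *Gnai3* (174 CPM) were called in neither comparison. Of 12 genes that shut receptors off, 5 rose and 1 fell in lactating basal cells. *Rgs5* rose from 85.4 to 4597 CPM and *Rgs4* from 8.11 to 330 CPM, and both stimulate the GTPase of Gq and Gi. *Grk5* rose from 17.5 to 115 CPM and *Rgs3* from 3.42 to 15.5 CPM. *Rgs5* is also the leading pericyte marker above. The arrestin *Arrb1* fell in basal cells from 155 to 68.6 CPM and in luminal cells from 179 to 80.8 CPM. *Rgs16*, *Rgs5* and *Rgs4* rose in luminal cells, *Rgs5* from 6.84 to 66 CPM and *Rgs4* from 0.58 to 9.7 CPM. The basal and endothelial marker sums differ along that luminal contrast, and their part was not tested. *Rgs2* was among the 4 higher in basal cells, by 4.4-fold (4.44-fold without Id2). In lactating basal cells *Rgs3* lost its call without L10 replicate 5 (1.69 to 1.16 on the log2 scale) and *Arrb1* without L10 replicate 6 (-1.18 to -1.02, limma adjusted p = 0.015). *Grk2* (1.00), another of the 5, was not called without 7 of 15 sorts (Iw4 replicates 3 and 6, L3 replicates 4 and 5, L10 replicate 6, M4 replicate 2 and W10 replicate 6), at 0.86 to 0.99, nor *Gnai1* (1.01) without 12, at 0.90 to 1.11, where it stayed called without Iw4 replicate 6, L10 replicate 4 or W10 replicate 3. *Gnaz* (1.07) was not called between the cell types without L10 replicate 5 (0.99) or P14.5 replicate 3 (0.94).

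**Figure D5:**
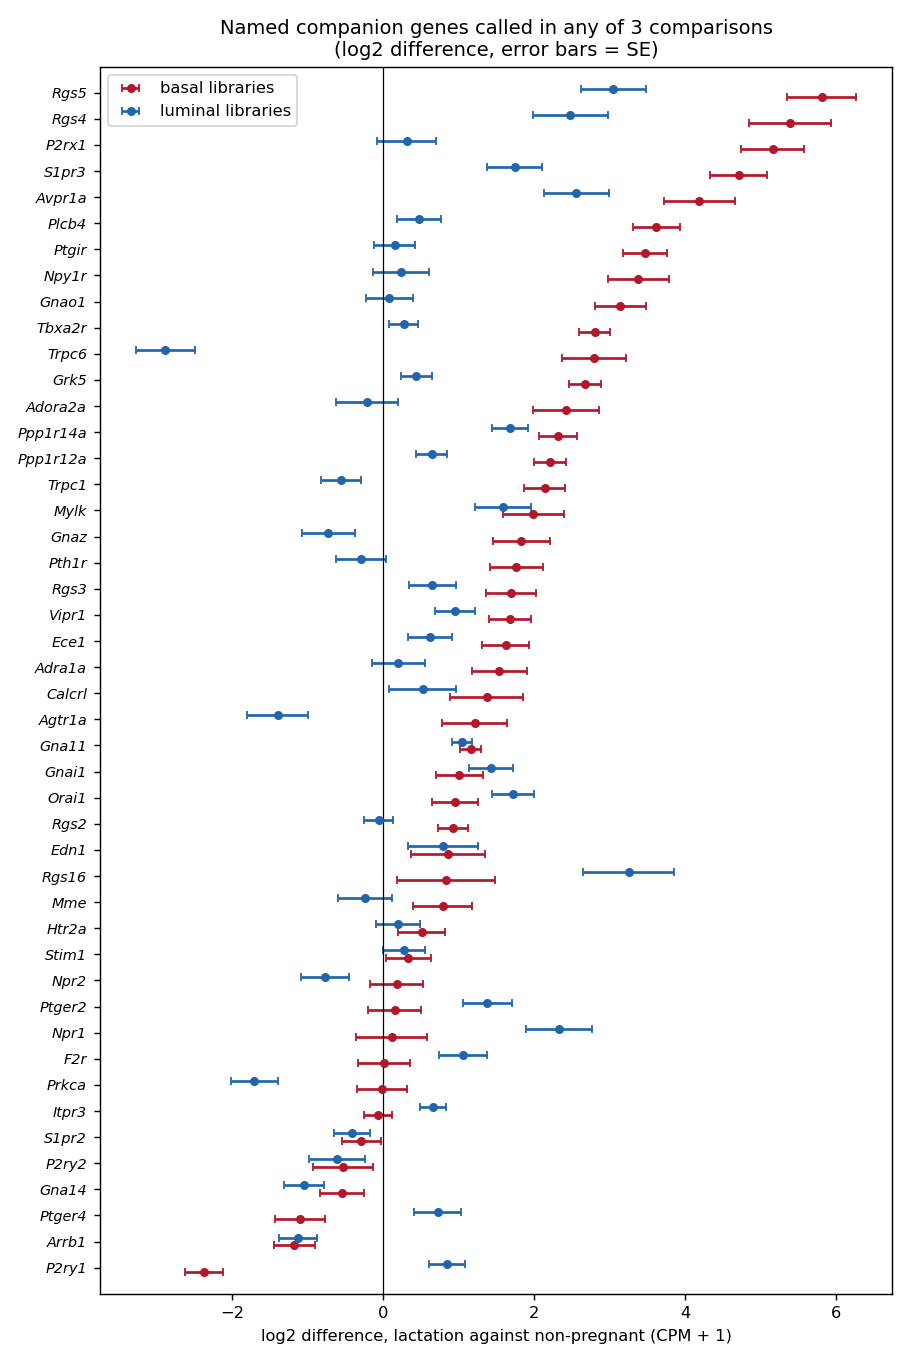
Log2 difference between lactation and non-pregnant cells (horizontal axis, CPM + 1) with SE for the named companion genes (vertical axis) in basal (red) and luminal (blue) libraries, ordered by the basal value. Rgs5, Rgs4 and P2rx1 have the largest basal differences, P2ry1 the lowest, and Trpc6 lies on opposite sides of 0 in the cell types.

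The 9 members' log2 differences for basal against luminal and for lactation against non-pregnant basal cells kept their sign under a pseudocount of 0.1, rescaling by median ratios and leaving out each sort in turn. The members were chosen for these differences, so a kept sign was likely from the start and is no independent evidence. On the log2(CPM + 1) scale the differences of genes near the floor are understated.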

How the data were processed

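RNA of sorted luminal and basal cells of pooled FVB/N mice was amplified and sequenced by the authors, aligned to mm9 with GSNAP and counted per Ensembl gene with htseq-count. The deposited values are a signal, gene counts divided by the effective library size of edgeR (CPM, so that columns differ in their sums), from which the authors had removed genes of low level and some of very high count and low variability. The strand setting is not given in the sources used here. Of 47 samples described, 46 had values, since 1 basal P14.5 library was left out by the authors. Values were whole multiples of 1 read for 100% of entries (tolerance 0.01), which gave depth and allowed edgeR on recovered reads as an alternative.

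Members, lists and tests were chosen with earlier results of these data known. log2(CPM + 1) was fitted with limma (3.58.1, R 4.3.3, trend) over 16 group means, with calls at a fold of 2 and a Benjamini-Hochberg adjusted p under 0.01 over 17078 genes. edgeR was version 4.0.16. Other steps used Python 3.11.15, pandas 2.3.3 and numpy 2.4.6. The fits were tested on simulated data. Intervals between libraries reflect separate sorts, and the floor of 3 reads covers counting error only. Named companion genes were, per list, up to 4 called in each direction by size and the 2 most abundant, and 1 gene that the rule names is not reported here. Correlations were over genes with a group mean of at least 5 CPM in a group.

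Luminal and basal libraries of a sort come from the same mice, so the numbers pair the samples. Of 22 such pairs, 17 had a correlation of deviations over 0.1 (median 0.31, 21 positive), and the consensus correlation was 0.179. Alternatives were a pseudocount of 0.1, a filter at 5 CPM, median-ratio rescaling, edgeR, the sort as a block, a false discovery rate of 0.05 without a fold, leaving out Id2, and leaving out each sort. Leaving out the highest library of a mean, and listing companion calls lost without a sort, were chosen after seeing the data.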

Additional observations from a re-analysis of the deposited data

Results flagged for a closer look

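Among the 87 pathway genes, the change from non-pregnant to lactating cells differed between basal and luminal cells for 28 by limma's interaction term (11.4% of all genes were called by it), of which edgeR on the recovered reads also called 19. The values here are the basal minus the luminal change, on the log2(CPM + 1) scale, for the 20 of them named in the report. Lactation and amplification batch cannot be told apart in either cell type. The pericyte and endothelial marker sums differ along the basal change, and the basal and endothelial sums along the luminal change.

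In 18 of the 20 the value was positive. It was highest for the calcium channel *Trpc6* (5.68, SE 0.57), with a change of 2.79 in basal and -2.89 in luminal cells, and *Trpc1* gave 2.70. Among receptors that contract smooth muscle, *P2rx1* gave 4.85, *Npy1r* 3.15, *S1pr3* 2.97, *Agtr1a* 2.62 (1.21 in basal and -1.40 in luminal cells) and *Tbxa2r* 2.53. Among those that relax it, *Ptgir* gave 3.33, *Adora2a* 2.63 and *Pth1r* 2.05. The last 2 values depend on L10 replicate 6. Without it the basal change was 1.16 in place of 2.42 for *Adora2a* and 1.08 in place of 1.76 for *Pth1r*. Downstream, *Plcb4* gave 3.15, *Prkca* 1.68 (-0.02 in basal and -1.71 in luminal cells) and *Ppp1r12a* 1.58. The Gi subunits *Gnao1* and *Gnaz* gave 3.05 and 2.56, and the regulators *Rgs4*, *Rgs5* and *Grk5* gave 2.90, 2.76 and 2.22. In 2 genes the value was negative, *P2ry1* (-3.22) and *Ptger4* (-1.82). edgeR did not call 7 of the 20, namely *Npy1r*, *P2rx1*, *S1pr3*, *Tbxa2r*, *Ptgir*, *Pth1r* and *Rgs4*.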

How the results depend on the processing

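Of 228 alternatives to counts of called genes, 210 stayed within 1.5 times, and of 396 alternatives to the members' descriptive differences 386 moved by less than the spread between libraries and 0 changed sign. The members were chosen for those differences, so that their signs held was likely in advance. Among members from P3.5 to P14.5 in basal cells, 2 were called (1 in the report) under median-ratio rescaling, with the replicate block (sort) and without the 6 Id2 libraries, and 3 at a false discovery rate of 0.05 with no fold, where 1 was called from W10 to P3.5 in basal cells. The replicate block changed no other count by over 1.5 times. At 0.05 with no fold, companion genes numbered 59 higher in basal, 17 higher in luminal, 8 lower in lactating basal, and 24 higher and 8 lower in lactating luminal cells. With genes of at least 5 CPM only, 20 were higher in basal cells, where fewer genes were tested, and with edgeR 3 were lower in lactating luminal cells, where the cause was not tested.

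With a pseudocount of 0.1, which widens differences near 0, basal minus luminal was 2.66 for *Adra1b*, 2.76 for *Adra1d*, 3.57 for *Adra2b*, 4.43 for *Ednrb* and 2.61 for *Lhcgr*, and lactation minus non-pregnant in basal cells was 6.12 for *Adra1b*, 3.54 for *Adra1d*, 2.64 for *Adra2b*, 2.64 for *Adra2c* and 6.55 for *Lhcgr*. Leaving out each sort in turn gave 0 to 1 members called from P3.5 to P14.5 in basal cells, and for companion genes 28 to 32 higher in basal, 9 higher in luminal, 28 to 33 higher and 1 to 3 lower in lactating basal (1 without L10 replicate 6), and 12 to 15 higher and 4 to 6 lower in lactating luminal cells. Where this left a basal group with 1 library, that library was assumed to vary like the other groups. Reads near the floor limit *Adra1b*, *Adra1d*, *Adra2b*, *Adra2c* and *Lhcgr*.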
